A study of Mus musculus with 2 samples.

Results

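The genes described here build, move and turn over the actin cytoskeleton of lymphocytes, measured in regulatory T cells (Treg cells) of the mouse. They are 54 genes taken by gene symbol from the GENCODE M21 gene tables of both libraries, out of 55536 annotated genes. One symbol, Myl12b, names 2 overlapping gene models, so the members occupy 55 rows. The series holds 1 group: primary Treg cells of a male mouse aged 9 weeks, with no treatment or altered allele named in the labels. From this single biosample 2 polyA-selected RNA-seq libraries were made, labelled technical replicates 1 and 2. The sources used here do not give the strain, the sorting markers or the cell number. Because both libraries share the biosample, every spread and p-value below is technical and covers neither other mice nor other preparations. Where values are given as a pair, library 1 comes first, and a value after ± is the SD (n = 2 technical libraries).

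Actin exists as a pool of monomers and as filaments that grow at their barbed ends. Thymosins and profilin hold and deliver monomers, cofilin and its partners take old filaments apart, and capping proteins stop growth. The Arp2/3 complex starts branches when WASP or the WAVE complex activates it, and these in turn answer to the small GTPases Rac and Cdc42, which DOCK proteins load with GTP. Myosin II pulls on the filaments, plastin and filamin link them, and ezrin, radixin and moesin tie them to the membrane. In T cells this machinery drives crawling, shape at the immune synapse and the clustering of receptors, and inherited loss of several of the proteins, among them WASP, coronin 1A, DOCK2 and DOCK8, causes immunodeficiency.

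Estimated counts assigned to annotated genes summed to 34697128 and 32049199, so sampling was not the limit for the members, whose lowest value was 1854 counts. The labelled cell type was checked against its markers. Foxp3, the lineage's transcription factor, stood at 108 and 111 TPM (a relative transcript level, corrected for transcript length, whose total is the same in each library), and all 7 listed Treg or T cell markers were detected. All 4 B cell markers were also detected, led by Cd79b at 33.0 and 28.7 TPM, as were all 5 red cell markers, which summed to 383 and 351 TPM. Of the myeloid markers 2 of 6 were detected, and their list summed to 20.5 and 20.2 TPM, with members going opposite ways. S100a8 had 0 and 32 counts and S100a9 had 0 and 20, whereas Csf1r had 315 and 182 and Adgre1 had 62 and 17. No platelet marker of 5 and no stromal or endothelial marker of 5 was detected, with sums of 1.59 and 2.0 TPM and of 0.66 and 0.46 TPM. Among the platelet markers Gp1bb had 0 counts in both libraries, Itga2b had 35 and 9, and Pf4 had 2 and 9. B cells, myeloid cells and red cells also express many of the members, and their part in the values below was not tested.

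All 55 member rows were detected, meaning a level of at least 1 TPM in each library. The same was true of 23.9% of all annotated genes and of 48.0% of the 22028 protein-coding genes. The median member stood at 377 TPM against 31.1 TPM for detected protein-coding genes, and 48 of 55 member rows reached 100 TPM, as did 17.4% of detected protein-coding genes. Among the 100 protein-coding genes with the highest TPM, 11 were members, and among the 1000 highest, 40 were. Together the members took 5.76% and 5.65% of all TPM. Tmsb4x alone made up 26.9% and 27.6% of the members' TPM, and the 5 highest members made up 54.3% and 54.6%. The coefficient of variation between libraries ran from 0.0996% to 18.6% with a median of 4.17%. When the rows were ordered by mean level, 28 of the 54 neighbouring pairs had overlapping library ranges, so their order is not resolved.

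**Figure D1:**
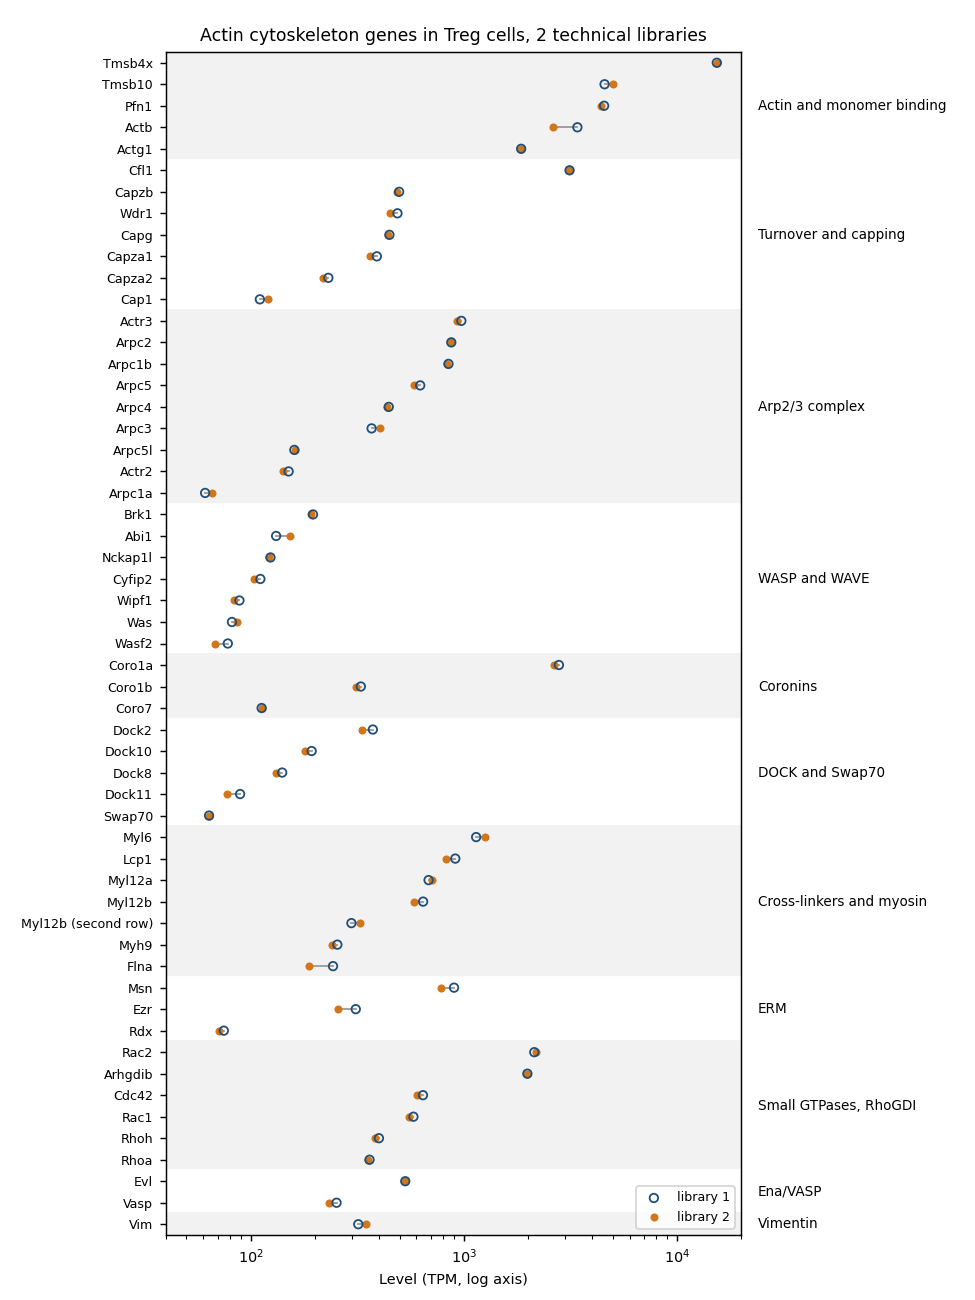
Level of each member gene in TPM on a log axis, with library 1 as open circles and library 2 as filled circles joined by a line, grouped by role. Tmsb4x has the highest mean at 15439.8 TPM, Arpc1a the lowest at 63.4 TPM, and Actb and Flna show wide gaps between the libraries.

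The proteins that hold actin monomers were encoded by the most abundant members. Tmsb4x, whose product thymosin beta 4 sequesters monomers, measured 15401 and 15479 TPM, and its relative Tmsb10 measured 4581 and 5035 TPM. Pfn1, the profilin that feeds monomers to growing ends, measured 4559 and 4422 TPM. The genes of the cytoplasmic actins lay lower: Actb at 3415 and 2622 TPM and Actg1 at 1860 and 1852 TPM. Thymosin transcripts therefore exceeded the summed actin transcripts by 3.79-fold and 4.58-fold in TPM, while profilin stood at 0.864 and 0.988 of them in TPM but at 1.12 and 1.18 by counts per length of the leading transcripts. Actb was the exception to close agreement in this group, with 3019 ± 561 TPM, and its library ranges overlapped those of both Cfl1 above it and Coro1a below it.

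The leading Tmsb4x transcript is shown because it carries an extended coding region. Tmsb4x lies on chromosome X (GRCm38, 167207093 to 167209315, minus strand). Transcript Tmsb4x-203 took 88.6% ± 0.452 of the gene's TPM, with a coding region of 153 bases, and Tmsb4x-201 took 10.7% ± 0.498, with 135 bases. The coding sequence of Tmsb4x-203, from the GENCODE M21 transcripts, reads as follows, with the 18 bases that precede the start codon of the shorter form in capitals.
Tmsb4x-203: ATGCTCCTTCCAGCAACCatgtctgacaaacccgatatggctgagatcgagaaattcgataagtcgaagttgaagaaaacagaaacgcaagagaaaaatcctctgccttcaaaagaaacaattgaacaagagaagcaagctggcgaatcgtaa
The extension keeps the reading frame. Both shares are estimates that divide reads between forms sharing the 135 bases. Reads over the sequence that tells these forms apart were not isolated, so use of the extension was not tested. For comparison, the shorter Tmsb4x form and the leading Tmsb10 transcript (chromosome 6, 72957347 to 72958748, minus strand) have coding regions of equal length. They differ at 40 of 135 positions, given in capitals.
Tmsb4x-201: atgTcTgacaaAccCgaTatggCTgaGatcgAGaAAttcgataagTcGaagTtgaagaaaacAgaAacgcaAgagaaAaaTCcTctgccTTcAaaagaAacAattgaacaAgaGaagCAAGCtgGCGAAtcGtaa
Tmsb10-203: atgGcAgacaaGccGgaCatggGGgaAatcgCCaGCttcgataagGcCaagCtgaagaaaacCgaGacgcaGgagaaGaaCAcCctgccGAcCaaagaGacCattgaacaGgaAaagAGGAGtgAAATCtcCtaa
The longest run of identical bases in the alignment of Tmsb4x-203 with Tmsb10-203 was 10 bases, shorter than a 50-base window, so reads of that length would not be shared within the aligned coding regions.

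The actin genes differ in this, with a shared stretch that is longer than a window. Actb (chromosome 5, 142903115 to 142906754, minus strand) and Actg1 (chromosome 11, 120345690 to 120348542, minus strand) agree at 88.7% of 1128 coding bases, with a longest identical run of 62 bases. The first 60 coding bases differ at the 9 positions in capitals, and they encode the start of the protein, where the isoforms are known to differ.
Actb-201: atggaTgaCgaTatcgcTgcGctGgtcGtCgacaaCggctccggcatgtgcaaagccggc
Actg1-204: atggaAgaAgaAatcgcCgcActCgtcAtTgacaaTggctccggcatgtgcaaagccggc
When every 50-base window of the leading transcript was looked up in all other annotated genes, 85.8% of the windows of Actb-201 were found nowhere else, against 39.3% for Actg1-204. Most of the shared Actg1 windows lay in processed pseudogenes, which are intronless copies of a gene's transcript. The Actb to Actg1 ratio was 1.84 and 1.42 in TPM, and 1.30 and 1.11 when estimated counts were divided by the length of the leading transcript. Actb was thus the higher of the pair in both libraries on either measure, by an amount that depended on it. This order is that of the gene totals. Actb-201 alone, with the full coding region of 1128 bases, took 1235 and 1419 TPM, below Actg1-204 at 1618 and 1599 TPM. The rest of the Actb total lay mainly in Actb-208, whose coding region is incomplete, and Actb-207, with 888 coding bases.

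Filament turnover was led by cofilin. Cfl1, which severs old filaments, measured 3138 and 3114 TPM, or 0.595 and 0.696 of the summed actin transcripts. Wdr1, whose product speeds disassembly by cofilin, measured 489 and 450.4 TPM, and Cap1, which recycles monomers, was the lowest of the group at 111 and 121 TPM. The barbed-end capping protein is a dimer of an alpha and a beta chain. Its alpha chains, encoded by Capza1 (391 and 362 TPM) and Capza2 (232 and 218 TPM), summed to 623 and 579.7 TPM. The beta chain gene Capzb measured 498 and 484 TPM, so alpha exceeded beta 1.25-fold and 1.20-fold. Capg, a capping protein of the gelsolin family, measured 448 and 440.1 TPM, below Capzb in both libraries.

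The subunits of the Arp2/3 complex, present in equal numbers in the protein, were not equal in transcript level. Actr3, which encodes Arp3, measured 975 and 930.3 TPM. Actr2, which encodes Arp2, measured 151 and 143 TPM, so the Arp3 transcript was 6.46-fold and 6.53-fold higher. The ratio was 6.80 and 6.81 by counts per length of the leading transcripts, and the ranges were far apart. Arpc2 measured 874 and 876 TPM, and the ArpC1 genes together 909.5 and 902 TPM. The ArpC5 genes together measured 785 and 746 TPM. Arpc4 at 445 and 436 TPM and Arpc3 at 369.8 and 406 TPM formed a lower tier, and the ArpC1 genes together exceeded Arpc3 2.46-fold and 2.22-fold. Within the duplicated subunits, Arpc1b exceeded Arpc1a (61.2 and 65.6 TPM) 13.9-fold and 12.8-fold, and Arpc5 exceeded Arpc5l (160.5 and 161 TPM) 3.90-fold and 3.62-fold. Arpc1b is the form that blood cells are known to use, and its loss causes immunodeficiency.

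The activators of Arp2/3 are the WASP and WAVE proteins with their partners. Was, which encodes the Wiskott-Aldrich syndrome protein, measured 81.8 and 86.0 TPM. Wipf1, whose product WIP stabilises WASP, measured 88.7 and 83.5 TPM, so the ranges of these partners overlapped. The WAVE complex has 5 subunits. Brk1, the smallest, was highest at 196 and 192 TPM, followed by Abi1 at 132 and 153 TPM and Nckap1l, the blood-cell form of the Nap1 scaffold, at 124 and 122 TPM. Cyfip2, which carries the Rac binding site, measured 111 and 104 TPM, and Wasf2, the WAVE protein itself, 78.2 and 67.8 TPM. The ranges of Abi1 and Nckap1l did not overlap, nor did those of Cyfip2 and Wasf2. The span from Brk1 to Wasf2 was 2.51-fold and 2.83-fold in TPM, and 4.45-fold and 4.28-fold by counts per length of the leading transcripts. For Wasf2 the TPM was lower in library 2 while its scaled counts were higher (5220 and 5136 counts before scaling), and a short fragment, Wasf2-206, held 14.2 and 4.86 TPM.

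Coronins bind filaments and regulate Arp2/3 and cofilin. Coro1a, the leukocyte form, measured 2797 and 2665 TPM and was the sixth highest member row. Coro1b measured 329 and 311 TPM, and the Golgi-associated Coro7 measured 113 and 113 TPM. Coro1a exceeded Coro1b 8.50-fold and 8.57-fold and exceeded the widely expressed Coro1c (72.9 and 62.3 TPM) 38.4-fold and 42.8-fold.

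Among the small GTPases and their regulator, Rac2, the blood-cell Rac, had the highest TPM at 2144 and 2179. Arhgdib, the leukocyte RhoGDI that keeps the GTPases soluble and inactive, followed at 1990 and 1976 TPM. Cdc42 measured 644 and 606 TPM, Rac1 measured 581 and 553 TPM, and Rhoa measured 362 and 354 TPM. Rhoh, a member that lacks GTPase activity and is needed for T cell receptor signalling, measured 400.2 and 382 TPM, above Rhoa in both libraries. Transcripts annotated as retained introns, processed transcripts or decay targets took 23.7% of the Rhoh TPM and 1.45% of the Rhoa TPM. With those transcripts set aside, Rhoh would lie below Rhoa in both libraries, so the order given holds for the gene totals only. The Rac2 to Rac1 ratio of 3.69 and 3.94 rested in part on a fragment of 254 bases, Rac2-203, which took 57.2% ± 0.304 of the Rac2 TPM and 9.74% ± 0.184 of its counts. By counts per length of the leading transcripts the ratio was 1.98 and 2.10, so Rac2 stayed above Rac1 while the size of the gap changed.

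The DOCK proteins, which activate Rac and Cdc42, were ordered Dock2, Dock10, Dock8 and Dock11, and their ranges did not overlap. Dock2, the main Rac activator of migrating lymphocytes, measured 375 and 334 TPM. Dock10 measured 193 and 179.8 TPM, Dock8 measured 141 and 132 TPM, and Dock11 measured 89.3 and 77.7 TPM, all of them activators of Cdc42. Dock1, the relative of Dock2 in other tissues, had 20 and 25 counts, against 40343 and 35015 for Dock2. Swap70, an actin-binding adaptor of PI3K signalling, measured 63.9 and 63.9 TPM and lay below its relative Def6 at 208 and 175 TPM. It was the sole pair of 37 in which the member named first was the lower.

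Filament linkers and myosin II came next. Lcp1, the leukocyte plastin that bundles filaments, measured 913 and 829 TPM. Flna, the cross-linker filamin A, measured 244 and 188 TPM, and it varied most between libraries after Actb in TPM. Myh9, the heavy chain of myosin IIA, measured 255 and 241 TPM. Its essential light chain gene Myl6 measured 1144 and 1257 TPM, 4.48-fold and 5.22-fold above Myh9. The regulatory light chain genes Myl12a and Myl12b together measured 1627 and 1622 TPM, 6.37-fold and 6.74-fold above Myh9. In the protein the heavy chain and each kind of light chain are present in equal numbers.

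The regulatory light chain genes are close neighbours on chromosome 17 and nearly alike. Over 519 coding bases Myl12b-204 and Myl12a-208 agree at 96.5%, with a longest identical run of 105 bases. Their first 90 coding bases differ at the 4 positions in capitals, which lie in the first 18 bases.
Myl12b-204: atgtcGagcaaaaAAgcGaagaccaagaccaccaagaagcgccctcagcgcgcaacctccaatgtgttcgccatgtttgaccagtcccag
Myl12a-208: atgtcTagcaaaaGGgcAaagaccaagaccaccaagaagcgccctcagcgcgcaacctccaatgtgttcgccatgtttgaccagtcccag
Of the windows of Myl12a-208, 45.1% were found in no other gene, and for Myl12b-204 it was 75.0%. The second gene model named Myl12b was not counted as another gene, so 75.0% is an upper bound. The second gene model named Myl12b holds transcripts such as Myl12b-205, which begins at base 71002205, inside the Myl12a gene, and ends at base 70974119, inside Myl12b. It took 31.5% and 35.7% of the Myl12b TPM. Myl12a measured 684 and 709 TPM and the Myl12b models together 942 and 913 TPM, so Myl12b was 1.38-fold and 1.29-fold higher. How reads were divided between these models was decided by the authors' estimation and was not tested here.

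Of the proteins that tie filaments to the membrane, moesin led. Msn measured 901 and 781 TPM, Ezr (ezrin) 312 and 258 TPM, and Rdx (radixin) 74.9 and 70.8 TPM. Msn exceeded Ezr 2.89-fold and 3.02-fold and Rdx 11.5-fold ± 0.707, and the ranges were far apart. The filament elongation factors Evl and Vasp measured 532 and 528 TPM and 253 and 234 TPM. Evl exceeded Vasp 2.10-fold and 2.26-fold in TPM, and 1.55-fold and 1.58-fold by counts per length. Vim, the intermediate filament protein vimentin, measured 320.1 and 347 TPM.

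The difference between the technical libraries sizes the error of these levels. An exact two-sided binomial test of library 2 against library 1, on TMM-scaled estimated counts with Benjamini-Hochberg adjustment at 0.05, called 36.5% of the 18746 genes tested. It called 33 of the 55 member rows. Library 2 was the higher in 22 of them and library 1 in 11, where the shares over all genes were 17.2% and 19.2%. This test covers counting error only, so it calls more in highly counted genes: 51.0% of the 6570 genes with 2000 or more counts summed over the libraries were called. Library 2 was the higher for 21.5% and library 1 for 29.5%. This background is not matched to the members in depth. In library 1, among genes with M4 counts (described below), 16 members and 77 other genes had at least 30000 estimated counts. From 1000 to 10000 there were 14 members and 5885 other genes. The calls among members were small in size. The largest was Flna at a log2 ratio of -0.25, and no member passed 1.5-fold, a size that 23.6% of all genes tested and 0.411% of the highly counted genes passed. The median member ratio was 0.03 on the log2 scale, against 0.00 for all genes tested. When edgeR's exact test was run with the common dispersion of both libraries, a coefficient of variation of 15.1%, it called 2.98% of all genes tested, 0.0761% of the highly counted genes and 0 members. That dispersion was estimated from these same 2 libraries over all genes tested, so the difference under test is part of its error. It is also wide beside the members' own spread. On the same scaled counts their median absolute log2 ratio was 0.054, and in TPM their median coefficient of variation was 4.17%. The absence of calls among members therefore cannot show that the libraries agree.

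The members with the widest differences reached both ways. Higher in library 2 were Myl6 and Tmsb10, each at a log2 ratio of 0.21, with Arpc3 at 0.20, Vim at 0.19 and Arpc1a at 0.19, as was the second Myl12b row at 0.21. Higher in library 1 were Flna at -0.25, Ezr at -0.22, Actb at -0.16, Msn at -0.13 and Dock11 at -0.12. Of the 17 rows whose leading transcript is under 1500 bases, 11 were called towards library 2 and 1 towards library 1, and the median ratio was 0.06. Of the 25 rows from 1500 to 4000 bases, 9 and 6 were called, with a median of -0.01. Of the 13 rows of 4000 bases or more, 2 and 4 were called, with a median of -0.03. Among the highly counted genes, classed by mean gene length, the medians were 0.06, -0.03 and -0.06 in the same order. Calls were not counted by length class for those genes. Across the 55 rows the log2 ratio and the leading transcript's length had a Spearman correlation of -0.56, and across the 6570 highly counted genes, using mean gene length, it was -0.30. These are correlations across genes of the same libraries, which are not independent replicates.

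The direction of small differences depended on the scale. TPM ratios were lower than ratios of scaled counts by a median of 0.07 on the log2 scale, and the median over the 18371 genes with TPM above 0 was -0.06. On the TPM scale 16 member rows were higher in library 2 and 39 in library 1. Of the 33 called rows 8 had the other sign by TPM, and these were Pfn1, Cfl1, Arhgdib, Actg1, Arpc1b, Capzb, Rhoa and Wasf2. The members at the extremes kept their sign on both scales.

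**Figure D2:**
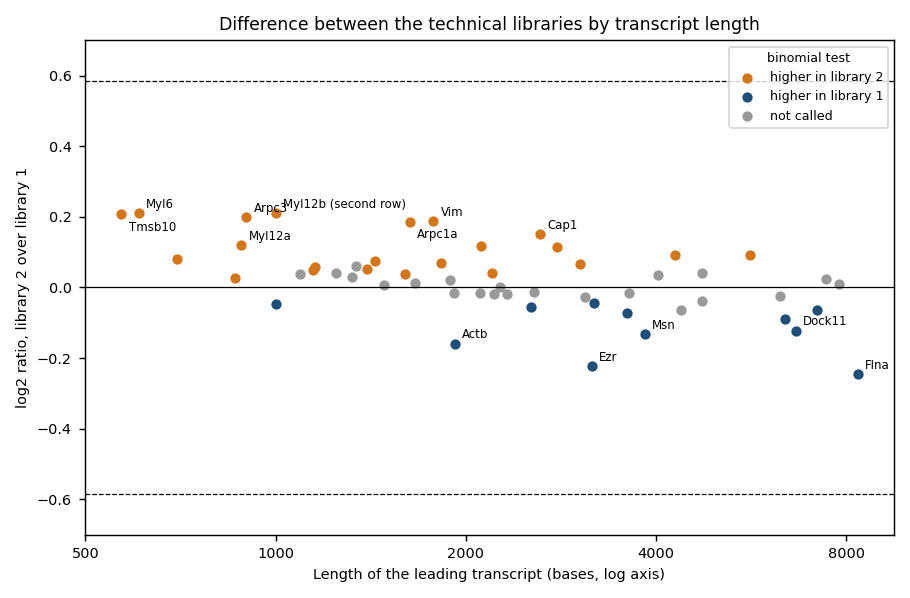
Log2 ratio of TMM-scaled counts, library 2 over library 1, for each member row against the length of its leading transcript on a log axis, coloured by the binomial test's call. Dashed lines mark 1.5-fold, which no member passed, and Myl6 (0.21) and Flna (-0.25) stand at the short and long ends.

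The pairs of related genes show which gene of each pair had the higher transcript level. In 36 of 37 pairs the gene named first was higher in both libraries, and in 23 it was more than 10-fold higher in both. The pairs were listed with earlier results of these data in view, so these counts describe the choice as well as the cells. The gap varied widely between pairs. The blood-cell form Nckap1l exceeded Nckap1 16.1-fold and 16.5-fold, and Abi1 exceeded Abi2 13.2-fold and 12.8-fold. Cfl1 exceeded the muscle cofilin Cfl2 83.4-fold and 73.3-fold, and Rhoa exceeded Rhoc 42.6-fold and 50.7-fold. Closer pairs were Cyfip2 over Cyfip1 (39.9 and 35.8 TPM) at 2.78 and 2.90, Arhgdib over Arhgdia (668 and 639 TPM) at 2.98 and 3.09, and Capza1 over Capza2 at 1.69 and 1.66. Was exceeded Wasl, the widely expressed N-WASP, 2.38-fold and 2.93-fold in TPM but 5.34-fold and 6.74-fold by counts per length of the leading transcripts. Ratios with few counts below the line were unstable. Actr3 over Actr3b, for which 74 and 17 counts were found, was 439 and 1789, and Wasf2 over Wasf1, with 3 and 10 counts, was 1303 and 357.

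**Figure D3:**
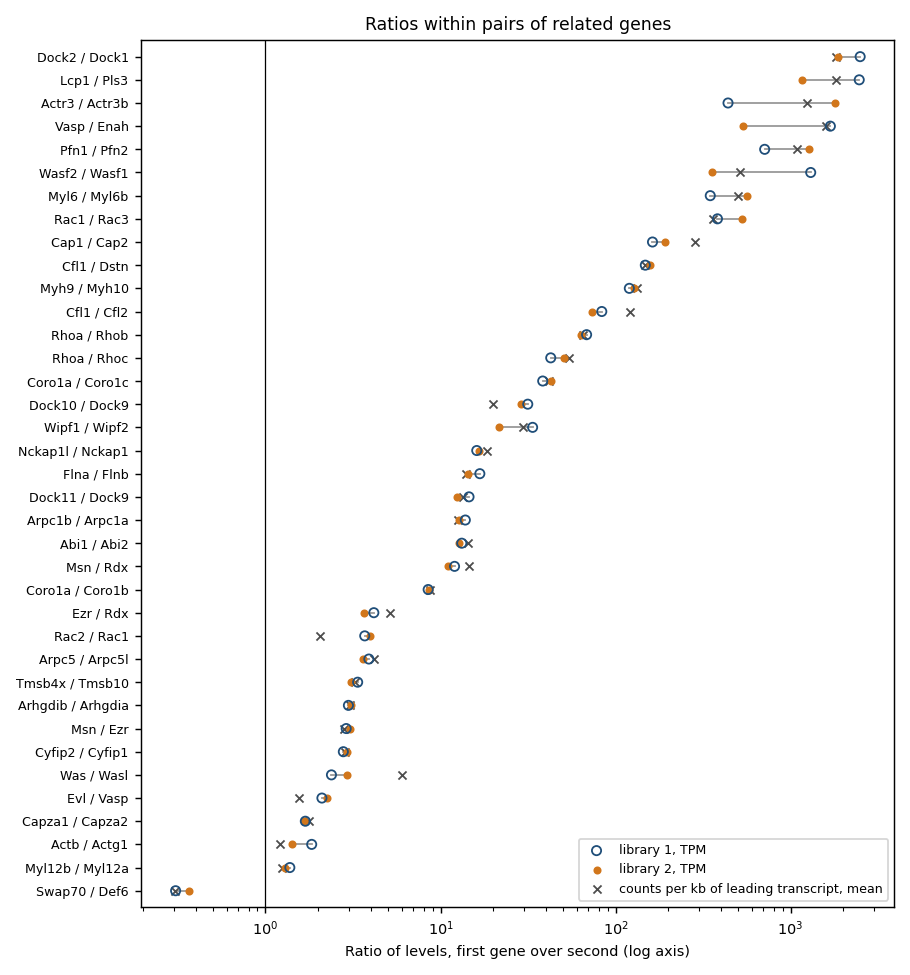
Ratio of the first gene's level to the second's for 37 pairs, on a log axis, in TPM for library 1 (open circles) and library 2 (filled circles), with crosses for estimated counts per length of the leading transcript. All pairs but Swap70 over Def6 lie to the right of 1, and the libraries diverge where the second gene has few counts.

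Related genes outside the members were mostly low. Of 54 listed relatives 29 were detected and 5 reached 100 TPM, with a median of 1.97 TPM. The highest were Arhgdia at 654 ± 20.7 TPM, the small GTPase genes Rhog at 236 ± 3.85 TPM and Rhof at 175 ± 7.82 TPM, Def6 at 192 ± 23.6 TPM, and the coronin Coro2a at 163 ± 8.30 TPM. The binomial test called 10 relatives of 40 tested towards library 2 and 9 towards library 1. These 19 stand against 36.5% called among all genes tested. Past 1.5-fold were 15 of the 40, against 23.6% of all genes tested, and 8 of the 15 were called. With the common dispersion edgeR's exact test called 2, Actr3b and Dock5. Called and past 1.5-fold were, towards library 2, Actg2 (256 and 361 counts), Coro2b (71 and 106), Dock6 (121 and 170) and Pls3 (24 and 45). Towards library 1 these were Pfn2 (237 and 125 counts), Actr3b (74 and 17), Dock5 (154 and 28) and Rhoj (11 and 0). None of the 8 had more than 361 counts in a library, whereas the lowest member had 1854.

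A wider list of 50 genes that act with the members was also measured. It holds regulators of small GTPases, tropomyosins, integrin adaptors and kinases of the same pathways. Of these 48 were detected, with a median of 103 TPM, and only Ssh3 and Vcl fell below the minimum in at least 1 library. The highest were Arhgef1, an activator of RhoA in leukocytes, at 1676 and 1600.3 TPM, and the tropomyosin Tpm3 at 811 and 793 TPM. Next came Arhgap45, an inactivator of small GTPases, at 766 and 645 TPM, then Rap1b, the GTPase that switches on integrins, at 414 and 373 TPM, and its effector Rassf5 at 358 and 333 TPM. The binomial test called 12 of 50 towards library 2 and 16 towards library 1, against 36.5% called among all genes tested and 51.0% among the highly counted ones, and none passed 1.5-fold. With the common dispersion edgeR's exact test called 0 of the 50, and 0 had an unadjusted p under 0.05.

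The transcript tables divide each gene's reads among 366 annotated member transcripts. The transcript with the largest share was annotated as protein-coding in all 55 rows, whether shares were taken by TPM or by estimated counts. That class also holds fragments and shortened coding regions. Evl-207 and Evl-206, which led Evl by TPM and by counts, have incomplete coding regions. Arpc4-203, at 79.3% of the TPM, codes 237 bases, against 507 in the principal form Arpc4-201. The leading transcript was the same on both measures in 52 rows and differed for Arpc3, Evl and Rac2. By TPM 46 leading transcripts took at least 50% of their gene and 13 at least 90%, and by counts 50 and 20 did. Transcripts annotated as retained introns, processed transcripts or targets of nonsense-mediated decay reached 10% of the gene in 24 rows by TPM and in 11 by counts.

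Cdc42 has alternative last coding exons, of which an upstream exon is known mainly from brain. Cdc42-202, with a last exon from 137319696 to 137321192 on chromosome 4, took 98.6% of the gene's TPM in each library, and Cdc42-201, ending in the exon from 137321762 to 137322619, took 1.39% ± 0.045. The last 90 coding bases differ at the 31 positions in capitals and encode the C terminus that is lipid-modified.
Cdc42-202: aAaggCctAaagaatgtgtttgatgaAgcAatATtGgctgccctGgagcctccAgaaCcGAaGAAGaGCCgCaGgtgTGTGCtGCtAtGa
Cdc42-201: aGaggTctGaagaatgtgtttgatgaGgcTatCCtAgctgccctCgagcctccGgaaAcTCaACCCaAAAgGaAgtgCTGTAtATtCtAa

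For Rac1 the estimates went to a form with an extra exon. Rac1-202 took 67.8% ± 0.96 of the TPM and 89.8% ± 0.476 of the estimated counts, while Rac1-201, the annotated principal form, took 0.0845% ± 0.0417 of the TPM. Rac1-202 includes an exon of 57 bases (chromosome 5, 143509597 to 143509653, minus strand), shown in capitals with 15 coding bases on either side.
Rac1-202: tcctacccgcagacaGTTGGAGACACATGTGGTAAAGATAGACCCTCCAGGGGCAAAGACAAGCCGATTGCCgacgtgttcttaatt
Rac1-204, a processed transcript of 585 bases without this exon, took 31.6% ± 0.913 of the TPM and 9.87% ± 0.373 of the counts. The tables do not isolate reads over the exon or its junctions, so whether the exon was included was not tested.

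Other members split between named forms, here as mean shares. Myl6-205 and Myl6-201, with coding regions of 420 and 456 bases, took 53.9% ± 0.744 and 40.3% ± 0.149 of the TPM. Capzb-202 and Capzb-204, with 783 and 819 coding bases, took 66.2% ± 3.79 and 30.8% ± 4.15. Dock2-201 took 53.2% ± 0.451 of the TPM and Dock2-206 took 42.7% ± 0.20. Dock2-206 is annotated as a retained intron transcript and covers 27 exons of the 5′ part of the gene, where the full form has 52. Rhoh-203, a retained intron transcript of 1 exon, took 23.7% ± 0.486 of the TPM and 38.6% ± 0.757 of the counts. Vim-206 took 47.0% ± 3.14, the retained intron fragment Vim-203 took 35.2% ± 0.509, and Vim-201, with the full coding region of 1401 bases, took 15.5% ± 2.34 of the TPM.

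In Actb and Flna, the members that varied most in TPM between libraries, the change was uneven among transcripts. Ezr and Msn changed in their leading transcripts instead. Ezr-201 went from 20265 to 15971 estimated counts and Msn-201 from 63685 to 53699. For Actb, Actb-201 held 48829 and 54491 estimated counts, whereas Actb-208 went from 22688 to 13351 and Actb-207 from 23970 to 11141. The lower Actb value of library 2 thus lay in the shorter forms. For Flna, Flna-201 went from 5015 to 744 counts and Flna-202 from 18423 to 13482, while Flna-203 held 12801 and 11984. Flna-213, annotated as a target of nonsense-mediated decay, went the other way, from 645 to 2661 counts. Actr3-201 went from 7615 to 1332 counts and Rdx-203 from 1606 to 501, in genes whose totals changed little. No test was made of single transcripts.

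**Figure D4:**
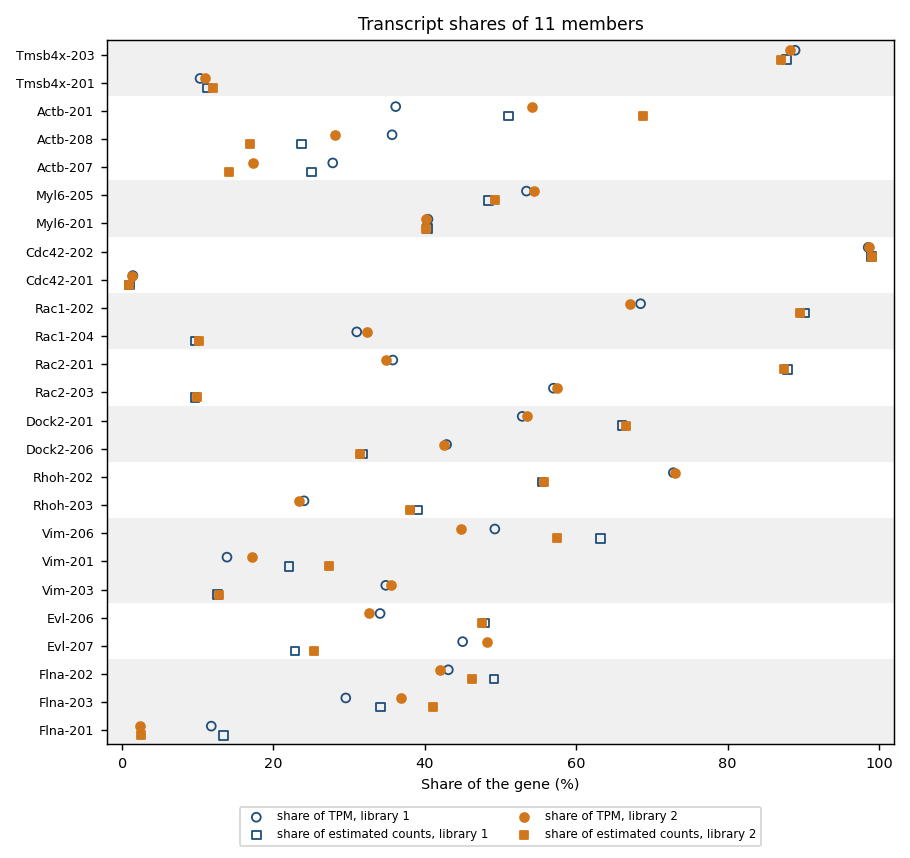
Share of the gene, in percent, taken by 25 transcripts of 11 members, with circles for TPM and squares for estimated counts, open for library 1 and filled for library 2. Circles and squares lie far apart for Rac2-203, at 57.2% of TPM and 9.74% of counts, and the libraries lie apart for the Actb transcripts.

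Shared sequence set a limit for some members. All windows of the leading transcript were unique in 27 of the 54 genes, and at least 90% were in 40. Fewer than 50% were unique in 5: Capza1 at 22.6%, Tmsb10 at 36.5%, Actg1 at 39.3%, Myl12a at 45.1% and Myl6 at 48.3%. Windows of 20 members occurred in annotated pseudogenes, in 69 distinct gene rows. Those rows held 0.207% and 0.215% as many estimated counts as the members. The largest was Gm8822, a processed copy that shares windows with Actr3, at 1422 and 1331 counts, followed by Gm3608, which shares windows with Capza1, at 444 and 399. Between members and these pseudogene rows, nearly all estimated counts went to the members. By TPM the Actr3 copies held 122 and 127, of which the short Gm15899 took 92.7 and 98.5. Some members also share windows with genes of other classes, such as Tmsb10 with Gm9844, and those counts were not summed. How the estimation divided shared reads was not tested.

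A further gene table, of whole-number counts on GENCODE M4 from the genome alignments, gave a different picture of the same genes. Of the 55 rows 54 were matched in it, all but the second Myl12b model. Tmsb4x had 608 and 596 M4 counts against 214057 and 208955 M21 estimated counts. Actg1 had 147 and 119 against 69905 and 67737, and Coro1a had 3231 and 3210 against 88206 and 82150. Across members the M4 count was between 0.210% and 60.2% of the M21 estimate in library 1, with a median of 12.5%, and between 0.176% and 63.2% in library 2, with a median of 13.9%. Among genes with at least 30000 estimated counts in library 1, the median share was 2.65% for 16 members and 3.73% for 77 other genes. From 10000 to 30000 counts it was 9.18% for 24 members and 17.3% for 470 other genes, and from 1000 to 10000 it was 26.5% for 14 members and 41.3% for 5885 other genes. Members and other genes alike had lower shares at higher counts, and the members' median was the lower in each of these classes. The M4 count followed the number of unique windows in the leading transcript, with a Spearman correlation of 0.77 in each library over 54 genes, and hardly followed the M21 estimate, at 0.02 in each. Per unique window it ranged from 0.210 to 2.01 in library 1 and from 0.170 to 1.99 in library 2, with medians of 0.95 and 0.93, while the estimated counts spanned 115-fold and 107-fold. Why the M4 counts are so low for abundant genes was not tested, and levels were taken from the M21 tables alone.

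**Figure D5:**
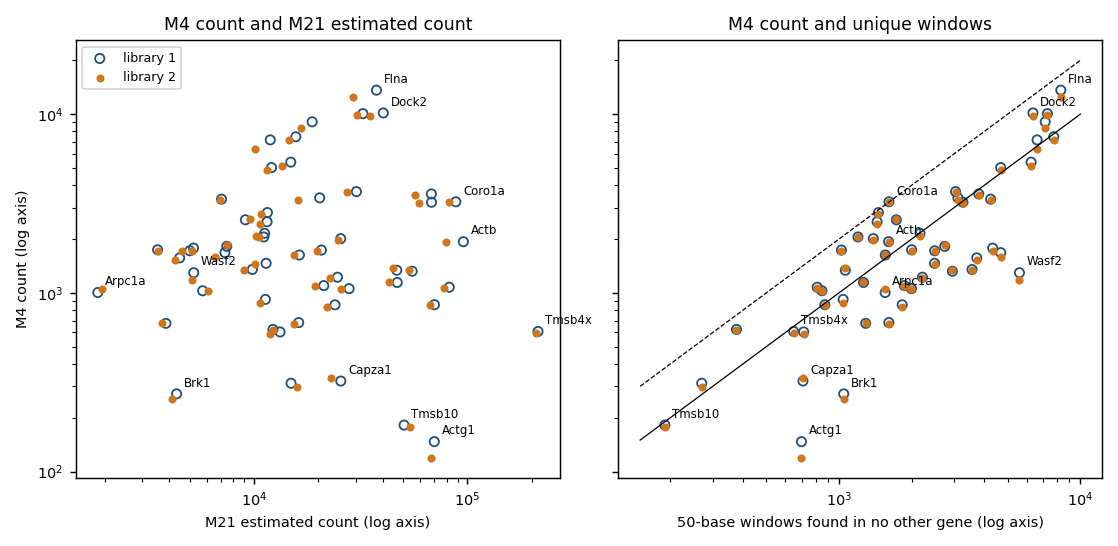
M4 whole-number count of each member against its M21 estimated count (left) and against its number of unique 50-base windows (right), all on log axes, with library 1 open and library 2 filled. The solid line on the right marks 1 count per unique window and the dashed line 2, and the highest member, Coro1a, lies at 2.01 and 1.99.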

How the data were processed

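PolyA-selected RNA of 1 biosample was sequenced as 2 libraries, per the labels. The deposited M21 gene and transcript tables give estimated counts (a model divides reads that fit several features), TPM and FPKM, per the file headers. They were made from transcriptome alignments on mm10. The deposited M4 table holds whole-number counts from genome alignments. The sources used here do not give the aligner, quantifier, strandedness or read length. Rows naming no gene (0.197% and 0.212% of estimated counts) were left out.

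Gene names, coordinates (1-based) and sequences came from GENCODE M21 on GRCm38. Estimated counts were rounded and scaled by TMM (edgeR 4.0.16, R 4.3.3). Genes with 10 or more counts over both libraries were compared by an exact binomial test, since 1 library per side leaves no residual degrees of freedom for a quasi-likelihood fit. Log2 ratios used a prior count of 0.5. The binomial script was tested on simulated data. Alternatives included DESeq2 1.42.0 size factors, other filters, units and M4 counts. Leading transcripts, those with the most estimated counts, were cut into 50-base windows and looked up in all annotated transcripts of genes with another symbol. Counts per length used transcript length less 49 bases. Protein identity could not be computed without a protein table, so coding identity was aligned with Biopython 1.88.

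Members, pairs and lists were chosen with earlier results of these data known. Named were all members, all genes of the pairs, the 5 highest genes of the wider lists and those called past 1.5-fold, and markers a sentence turned on. The pair lists were not all printed, and 1 relative is not reported here. Transcripts described were chosen after their values were seen.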

Additional observations from a re-analysis of the deposited data

How the results depend on the processing

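All 55 member rows stayed detected at 5 TPM, in FPKM, in posterior mean TPM and in each library alone, and 36 of 37 pairs kept the first gene higher under every unit tried. The median member level was 350.7 as posterior mean TPM and 234.6 as FPKM, and ranged from 362 to 375 TPM with a library left out. The members' share was 5.59% of posterior mean TPM and 4.58% of estimated counts, against 5.70% of TPM. The library comparison called 6834 genes and 33 members; the exact test of edgeR, which adds the common dispersion, called 558 and 0, and M4 counts called 1747 and 2. Library totals, DESeq2 size factors and filters at summed counts of 1 or 100 called between 31 and 37 members. The median log2 ratio was 0.03 and, as a ratio of TPM, -0.04.

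Single ratios changed sign as follows, and the cause was not tested. With DESeq2 size factors Rhoh was at -0.00028. With M4 counts 21 of 54 did, Actb at 0.076, Actg1 at -0.22, Actr3 at 0.10, Lcp1 at 0.076, Msn at 0.075, Cdc42 at 0.0797, Myl12b at 0.0503, Arpc5 at 0.051, Rac1 at 0.084, Wdr1 at 0.075, Capza1 at 0.14, Dock2 at 0.037, Ezr at 0.0405, Vasp at 0.029, Capza2 at 0.083, Brk1 at -0.00085, Actr2 at 0.086, Cyfip2 at 0.0062, Wipf1 at 0.0053, Wasf2 at -0.049 and Rdx at 0.034. As a ratio of TPM, chosen after seeing the data as were counts per length and the background of highly counted genes, 18 of 55 did, Pfn1 at -0.044, Cfl1 at -0.011, Coro1a at -0.0699, Arhgdib at -0.0095, Actg1 at -0.0059, Arpc1b at -0.0198, Evl at -0.0097, Capzb at -0.039, Capg at -0.026, Arpc4 at -0.029, Rhoh at -0.067, Rhoa at -0.029, Coro1b at -0.082, Myh9 at -0.085, Brk1 at -0.034, Dock8 at -0.10, Nckap1l at -0.027 and Wasf2 at -0.21.

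Leaving out a library ends the library comparison, which was therefore not repeated that way. No paired analysis was possible because the 2 libraries form 1 group with nothing to pair them against. Depth was ample for every member, while ratios against relatives with few counts rest on those counts. TPM of genes with short annotated fragments depends on how reads were divided among transcripts.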
